A study of Homo sapiens with 8 samples.

Results

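The G2/M and mitotic genes are the genes whose products drive a cell from the end of DNA replication through chromosome segregation and cytokinesis. They were taken as a fixed list of 51 gene symbols, of the 17240 gene symbols that could be given to probes of the array, and a probe belonged to the list if its accession led to one of these symbols. This gave 64 probes for 50 of the 51 genes, and 11 genes had more than 1 probe. For UBE2C, which encodes a ubiquitin-conjugating enzyme of the anaphase promoting complex, no probe was named in this way. All 50 genes were well above background on all 8 arrays in both channels, so none had to pass the filter on dim probes through 1 RNA only. CAPAN-2, an established human cell line from an adenocarcinoma of the pancreas, was studied with 8 Agilent 2-colour arrays, 4 for ErbB2-KD and 4 for MUC4-KD.

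The ErbB2-KD clones EV7, EV12, EV9 and EV18 carry a stably transfected shRNA plasmid against the receptor ErbB2 and were selected with puromycin. Each was hybridised against a pool of NT clones, which carry the empty vector. The MUC4-KD clones were made with a retroviral vector and G418 selection and were hybridised against a pool of Mock clones with the empty vector. The labels do not name the MUC4-KD clones. All clones were isolated by limiting dilution. By the methods each array holds 1 of 4 clones, but for MUC4-KD the labels do not show whether 2 arrays of opposite dye held the same clone, and an n of 4 would then be too high. With arrays 1 and 3 averaged, and 2 and 4, limma called 37 of the 50 genes higher, and the share of all probes is not given for that setting. That pairing was assumed, and the other pairing of opposite dyes, 1 with 4 and 2 with 3, was not run. Each control pool counts as 1 control sample whose own spread enters no test. In each experiment the dyes were balanced, with the knockdown RNA labelled by Cy5 on 2 arrays and by Cy3 on 2.

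The targeted genes were measured first. The ERBB2 probe A_23_P89249 gave log2 ratios of -0.58, -0.32, -0.32 and -0.38 in EV7, EV12, EV9 and EV18, with a mean of -0.40 and a limma adjusted p of 0.145. The other ERBB2 probe had a mean of 0.04. The MUC4 probe A_24_P208825 gave log2 ratios of 1.71, 2.34, 2.21 and 1.08 on the 4 MUC4-KD arrays, with a limma adjusted p of 0.00806. The RNA labelled MUC4-KD thus held more MUC4 message than that of the Mock pool, which goes against the label. A second MUC4 probe, A_24_P239183, was also higher (mean 1.34), and means of 0.27 and 0.41 on the other two did not pass the threshold. Every MUC4-KD ratio given here follows the labels, with the MUC4-KD label over the Mock label, a direction that opposes the study's own listing for this experiment. If the labels were exchanged, every sign in this experiment would turn. The markers of pancreatic ductal epithelium were well above background on all 8 arrays in both channels (7 of 7 genes), and so was vimentin, while PDGFRB and DCN of fibroblasts were above background on none. COL3A1 of that list was above background in 4 knockdown and 3 control channels, and COL1A2 in 1 and 1. Of the leukocyte markers, CD68 and CD14 were above background on all 8 arrays and PTPRC in 1 knockdown channel. CD3E was above in 4 knockdown and 4 control channels. Of the endothelial markers, VWF was above in 7 and 7, PECAM1 in 1 and 1 and CDH5 in 1 and 2.

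Entry into mitosis is driven by CDK1 bound to cyclin B, and the proteins needed for the division are made shortly before it. Their genes are transcribed together late in the cycle, through the CHR element and the CCAAT box of their promoters, which are bound by MuvB complexes with B-MYB or FOXM1 and by NF-Y. The messages are therefore low in cells in G1 and high in cells in G2 and mitosis. In a bulk sample, a larger share of cells in G2 and mitosis cannot be told apart from more of these messages in each such cell.

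Letters that match these elements were looked for in the promoters, and binding at a match was not tested. Sequences of RefSeq (GRCh38.p14) covering 250 bases before and 50 bases after the start were found for 43 of the 51 genes. The letters searched for on both strands were TTTGAA and TTCGAA for the CHR and CCAAT for the CCAAT box. The 250 bases before the start are given for 5 genes, 5′ to 3′ on the gene's strand, with these letters in capitals. By this search CCNB1 and KIF20A held no CHR letters and ANLN no CCAAT. CDK1 and CCNB1 are shown as the kinase and cyclin of mitotic entry, ANLN and KIF20A as the genes with the highest mean ratios in MUC4-KD, and CKS1B as a gene whose brightest probe had a ratio near 0, although another of its probes had a mean of 0.59.
CDK1 (chr10:60778081-60778330, + strand): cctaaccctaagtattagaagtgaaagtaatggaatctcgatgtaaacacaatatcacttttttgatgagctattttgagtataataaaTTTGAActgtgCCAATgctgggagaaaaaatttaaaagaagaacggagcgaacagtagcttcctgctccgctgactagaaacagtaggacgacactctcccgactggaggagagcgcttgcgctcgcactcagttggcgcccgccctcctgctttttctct
CCNB1 (chr5:69166900-69167149, + strand): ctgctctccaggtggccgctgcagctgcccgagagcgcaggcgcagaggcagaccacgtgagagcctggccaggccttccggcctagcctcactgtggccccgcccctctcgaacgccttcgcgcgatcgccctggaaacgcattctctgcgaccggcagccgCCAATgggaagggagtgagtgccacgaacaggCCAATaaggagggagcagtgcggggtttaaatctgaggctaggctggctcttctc
ANLN (chr7:36389612-36389861, + strand): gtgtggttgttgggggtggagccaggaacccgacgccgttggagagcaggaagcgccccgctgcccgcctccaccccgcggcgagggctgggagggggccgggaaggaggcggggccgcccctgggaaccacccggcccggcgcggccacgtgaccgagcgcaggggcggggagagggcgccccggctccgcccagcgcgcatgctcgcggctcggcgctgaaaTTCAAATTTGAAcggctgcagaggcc
KIF20A (chr5:138178862-138179111, + strand): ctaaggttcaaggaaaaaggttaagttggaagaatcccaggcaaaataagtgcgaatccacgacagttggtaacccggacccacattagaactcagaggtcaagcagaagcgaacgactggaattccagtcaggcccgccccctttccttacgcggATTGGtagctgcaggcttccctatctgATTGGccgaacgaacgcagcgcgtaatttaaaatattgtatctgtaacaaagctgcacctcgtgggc
CKS1B (chr1:154974431-154974680, + strand): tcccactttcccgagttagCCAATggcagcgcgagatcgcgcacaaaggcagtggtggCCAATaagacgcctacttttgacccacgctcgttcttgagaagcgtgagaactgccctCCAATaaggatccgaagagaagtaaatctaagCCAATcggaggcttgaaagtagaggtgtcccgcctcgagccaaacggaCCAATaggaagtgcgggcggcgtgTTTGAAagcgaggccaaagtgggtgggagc

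In the windows of 300 bases, the CHR letters were present in 31 of the 43 members (72.1%) and in 16.6% of 27305 promoters. CCAAT was present in 33 of 43 (76.7%) and in 35.7% of all promoters, and both were present in 26 of 43 (60.5%) against 6.58%. Members with the CHR letters had a median log2 ratio of 1.12 in MUC4-KD and the 12 without them 1.02. The medians with and without CCAAT were 1.06 and 1.05, and with both motifs and without both together 0.93 and 1.08. These medians are given as a description, with no test. CKS1B, with the lowest ratio of the 5 genes shown by the brightest probes, held 5 CCAAT matches and 1 CHR match before its start.

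By the labels, nearly all members had ratios above 0 on each MUC4-KD array, whereas their direction varied between the ErbB2-KD clones. Here and below, a gene called higher in MUC4-KD has a positive ratio as labelled. MUC4 itself was called higher by probe A_24_P208825, so no effect of MUC4 loss is read from these calls. In MUC4-KD, 39 of the 50 genes were called higher (limma, adjusted p under 0.05 over all probes) and 0 lower, where 12.0% of all 25047 tested probes were called higher and 8.48% lower. The median log2 ratio over the members was 0.99, against 0.01 over all tested probes, and 23 genes were at or over 2-fold. In ErbB2-KD, limma called 0 of 50 genes in either direction, where 0.549% of 23869 probes were called higher and 0.897% lower. At an unadjusted p under 0.05 there were 5 genes, namely BUB1, TTK, KIF14 and DLGAP5 with positive and FOXM1 with negative means. The share of all probes at that p is not given here. The median over the members was 0.21 in ErbB2-KD, and 37 means were above 0.

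The count in MUC4-KD depends on single arrays and on the normalization. It was 20 without array 1, 23 without array 2, 5 without array 3 and 42 without array 4, and 5 genes (CDK1, BUB1B, DLGAP5, ANLN and NCAPG) were called with each array left out in turn. With each array centred on its median in place of loess, 0 genes were called (17 at an unadjusted p under 0.05), while the median of the members was 1.17. The median of the members was 1.02, 0.94, 0.99 and 0.93 without arrays 1, 2, 3 and 4. The share of all probes called is not given for these settings, so the counts cannot be read against it.

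**Figure D1:**
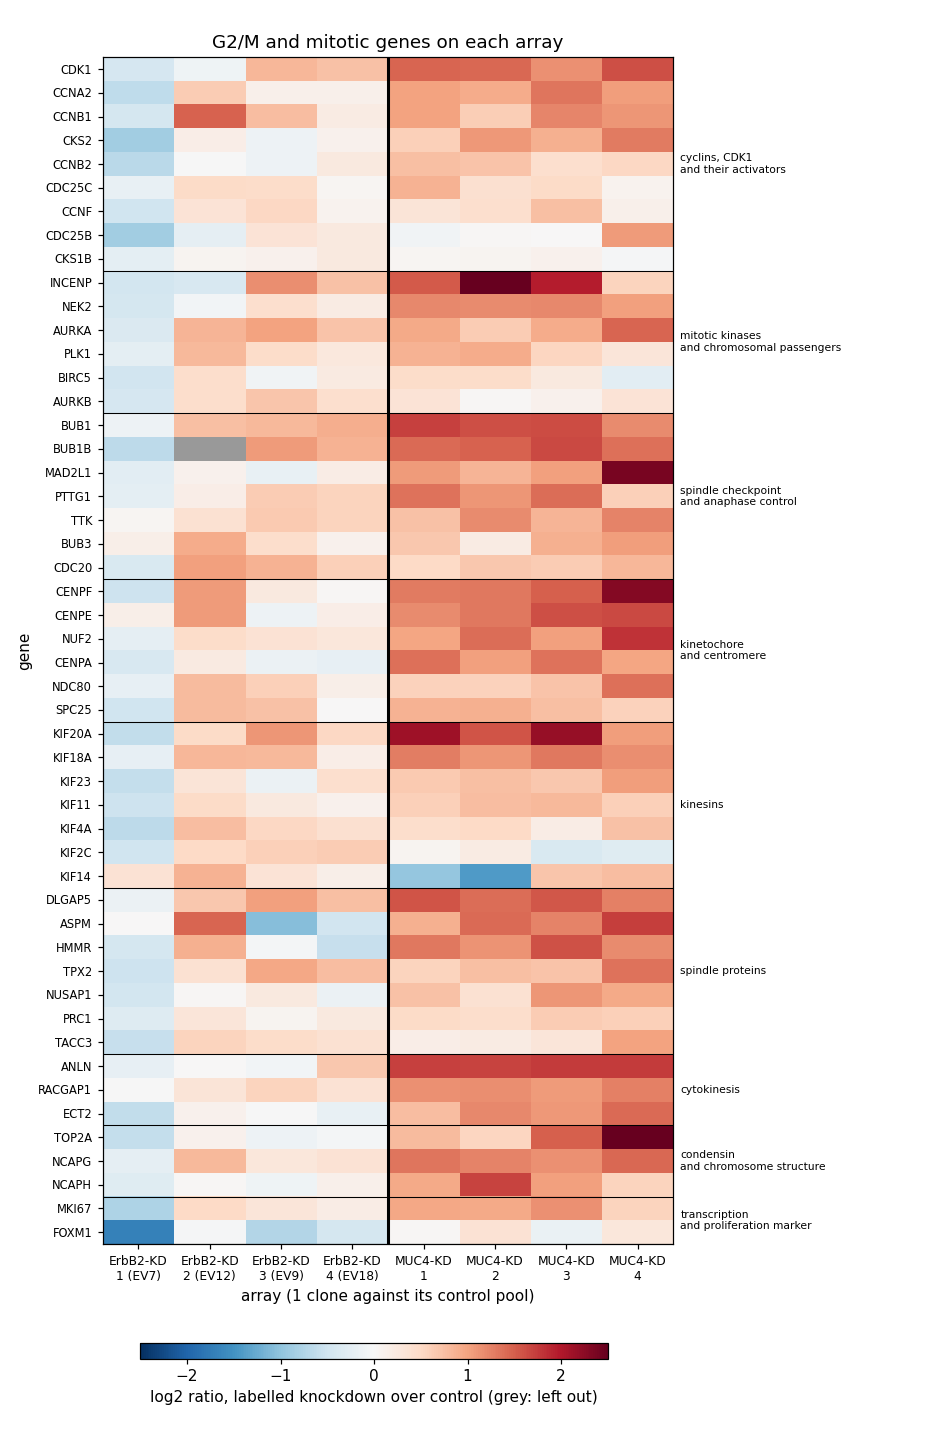
Log2 ratio of labelled knockdown over control for each of the 50 measured genes (rows, grouped by role) on each array (columns, ErbB2-KD on the left and MUC4-KD on the right). Red is higher in the RNA labelled knockdown and blue lower. The MUC4-KD columns are red in nearly every row and the EV7 column is mostly blue.

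The direction across the list was alike on the MUC4-KD arrays. They share the Mock pool, so a trait of that pool would enter the ratios of every array, and their agreement is not independent of it. The member medians were 0.87, 0.91, 1.02 and 1.04 on arrays 1 to 4, and 48, 49, 48 and 47 of 50 genes were above 0. Of all tested probes, 49.2%, 49.8%, 50.5% and 57.6% were above 0 on these arrays. On 4 of 4 arrays, 44 genes were higher, where 27.4% of all tested probes were. The ErbB2-KD clones did not share a direction. EV7 had a member median of -0.42 with 45 of 50 genes below 0, whereas EV12, EV9 and EV18 had medians of 0.45, 0.39 and 0.23. On the EV7 array, 47.5% of all tested probes were above 0. In ErbB2-KD, 3 genes (BUB3, TTK and KIF14) were higher on 4 of 4 arrays, where 12.1% of all tested probes were. Without EV7 the median was 0.39 and 20 genes had an unadjusted p under 0.05, with 0 called by limma. The median was 0.09 without EV12, 0.12 without EV9 and 0.16 without EV18, with 2, 0 and 2 genes at that p and again 0 called by limma. These counts have no share of all probes beside them. The median over all tested probes lay near 0 on each array. On MUC4-KD array 4 their middle 50% was narrower, from -0.09 to 0.24. It ran from -0.39 to 0.37 on array 1, from -0.38 to 0.37 on array 2 and from -0.38 to 0.39 on array 3.

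**Figure D2:**
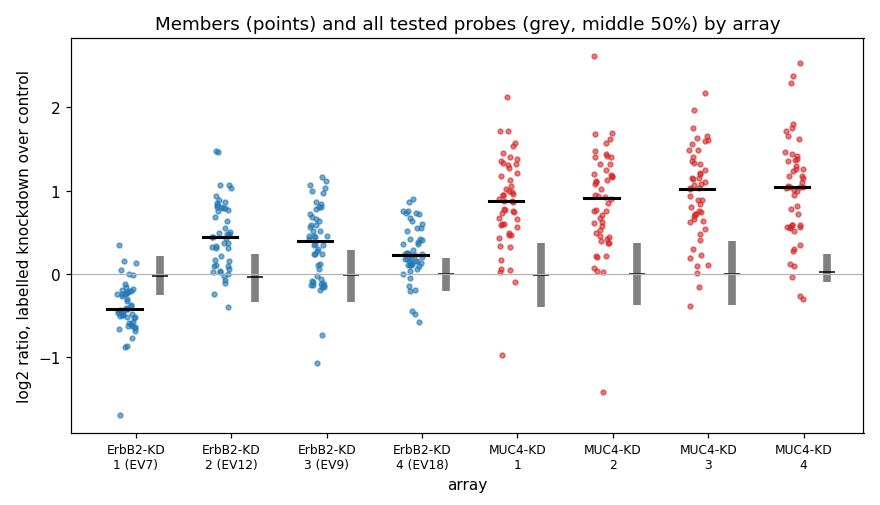
Log2 ratio of each member (points) on each array, with the member median (black line) and, beside it, the middle 50% of all tested probes (grey bar) and their median. The member medians of MUC4-KD lie between 0.87 and 1.04, and that of EV7 is -0.42.

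Over the members, the ratios of EV9 and EV18 went together (r = 0.73 over the genes), and the other pairs of ErbB2-KD clones had r between -0.12 and 0.40. MUC4-KD arrays 1, 2 and 3 had r of 0.70 to 0.86 with each other, and array 4 had r of 0.35 to 0.57 with them. These values are across genes that share a list, and arrays of 1 experiment share a control pool. Over all probes tested in both experiments, r was 0.72 for EV9 with EV18 and 0.20 to 0.50 for the other ErbB2-KD pairs. It was 0.68 to 0.83 among MUC4-KD arrays 1, 2 and 3 and 0.33 to 0.53 for array 4 with them. The arrays that went together over the members thus also did so over the whole array. The RNA of EV9 and of EV18 was labelled with Cy3.

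Cyclins, CDK1 and their activators set the time of entry. In MUC4-KD 5 of 9 were called higher, with a median log2 ratio of 0.60. CDK1, the mitotic kinase, had ratios of 1.46, 1.44, 1.15 and 1.62 on the MUC4-KD arrays and of -0.41, -0.11, 0.84 and 0.74 in EV7, EV12, EV9 and EV18. The 4 MUC4-KD values lie above all 4 ErbB2-KD values, and the mean of 1.42 was 2.67-fold (limma adjusted p = 0.00365). CCNB1, the cyclin B that activates it, had ratios of 1.01, 0.62, 1.21 and 1.11 in MUC4-KD (mean 0.99, limma adjusted p = 0.0108). In the ErbB2-KD clones CCNB1 ran from -0.43 in EV7 to 1.47 in EV12, so the experiments overlap for this gene. CCNA2 and CKS2 were also called higher, with means of 1.08 and 0.97, and CCNB2 with 0.60. CKS1B, a small subunit of cyclin-dependent kinase complexes, was between -0.03 and 0.11 on the MUC4-KD arrays by its brightest probe. Its probe A_32_P206698 had ratios of 0.48, 0.34, 0.37 and 1.16 (mean 0.59, limma adjusted p = 0.0552), and A_32_P192430 had a mean of 0.10. Cyclin F (CCNF) and the phosphatases that activate CDK1, CDC25B and CDC25C, did not pass the threshold, with means of 0.41, 0.25 and 0.46. A second CCNF probe, A_24_P193592, had a mean of -0.02.

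Among the mitotic kinases and chromosomal passengers, 4 of 6 were called higher in MUC4-KD, with a median of 0.82. INCENP, the scaffold of the chromosomal passenger complex, had ratios of 1.54, 2.62, 1.97 and 0.56, the widest spread of the called members of this group (SD 0.86, n = 4), and a limma adjusted p of 0.0229. AURKB, the kinase of that complex, had ratios of 0.34, 0.02, 0.10 and 0.34 and was not called, and BIRC5, its survivin subunit, had a mean of 0.22 and was not called. Members of the same complex thus had different ratios. AURKA, the kinase of the spindle poles, had ratios of 0.94, 0.63, 0.93 and 1.46 in MUC4-KD (limma adjusted p = 0.0149). In ErbB2-KD it had ratios of -0.37, 0.86, 1.00 and 0.72, the highest mean of the group at 0.55, with a limma adjusted p of 0.304. PLK1 and NEK2 were called higher in MUC4-KD, with means of 0.66 and 1.16. The second NEK2 probe, A_24_P319613, had a mean of 0.61 and was not called (limma adjusted p = 0.0562).

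The spindle checkpoint holds anaphase until every kinetochore is attached. In MUC4-KD all 7 measured genes of this group were called higher, with a median of 1.11. BUB1, a checkpoint kinase, had ratios of 1.71, 1.62, 1.64 and 1.18 there, and -0.12, 0.76, 0.81 and 0.90 in EV7, EV12, EV9 and EV18. The lowest MUC4-KD value of BUB1 is above the highest ErbB2-KD value (mean 1.54, limma adjusted p = 0.00365). CDC20, which activates the anaphase promoting complex, had the lowest mean of the group, with ratios of 0.50, 0.67, 0.63 and 0.82 (mean 0.65, limma adjusted p = 0.0175). BUB1B was called with a mean of 1.48, and its ratio on the EV12 array was left out as an outlier spot. MAD2L1, TTK, PTTG1 and BUB3 had means of 1.33, 1.00, 1.11 and 0.71. Of the other BUB3 probes, A_23_P46924 had a mean of 0.78 and A_23_P320658 one of -0.50, and neither was called. The mean of A_23_P320658 was -1.29 with the labelled knockdown in Cy3 and 0.29 with it in Cy5.

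Kinetochore and centromere genes gave a median of 1.24, and all 6 were called higher in MUC4-KD. CENPF, a kinetochore protein that accumulates in G2, had ratios of 1.30, 1.33, 1.49 and 2.30, with the highest value on array 4 (mean 1.60, limma adjusted p = 0.00773). Its probe A_24_P96780 had a mean of 0.36 and was not called. NDC80 and SPC25, subunits of the complex that binds microtubules, had means of 0.81 and 0.77, the lowest of this group. NDC80 had ratios of 0.58, 0.57, 0.72 and 1.37 on the brightest probe, and A_24_P14156 gave a mean of 0.21 that was not called. The mean of A_24_P14156 was -0.28 with the labelled knockdown in Cy3 and 0.70 with it in Cy5. SPC25 had ratios of 0.88, 0.90, 0.75 and 0.57. CENPA, CENPE and NUF2 had means of 1.19, 1.44 and 1.30.

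Kinesins, the motors of the spindle, were the group with the widest range of means in MUC4-KD, from -0.23 to 1.73, and 4 of 7 were called higher. KIF20A, a motor of the central spindle, had ratios of 2.12, 1.57, 2.17 and 1.05 (mean 1.73, limma adjusted p = 0.00805). In ErbB2-KD its ratios were -0.62, 0.48, 1.11 and 0.51. KIF14, a kinesin of cytokinesis, had ratios of -0.97, -1.42, 0.69 and 0.78. It was lower on the arrays with the labelled knockdown in Cy3 (mean -1.19) and higher on those with it in Cy5 (mean 0.74). With the Feature Extraction log ratios the mean over the 4 arrays turned from -0.23 to 0.27, and the part of the dye was not tested. KIF11, KIF18A and KIF23 were called with means of 0.69, 1.21 and 0.78. KIF4A had a mean of 0.46 and a limma adjusted p of 0.050001, just short of the threshold, and KIF2C had a mean of -0.10.

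Of the spindle proteins, 6 of 7 were called higher in MUC4-KD, with a median of 0.85. DLGAP5, a microtubule-binding protein of the spindle, had ratios of 1.57, 1.40, 1.56 and 1.26 (mean 1.45, limma adjusted p = 0.00291). In ErbB2-KD its ratios were -0.15, 0.68, 1.03 and 0.76. TACC3, which stabilises the microtubules of the spindle, had ratios of 0.17, 0.20, 0.30 and 1.01, with array 4 above the others (mean 0.42, limma adjusted p = 0.122). TPX2, NUSAP1, PRC1, HMMR and ASPM were called, with means from 0.53 for PRC1 to 1.32 for ASPM.

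Cytokinesis genes were all called higher in MUC4-KD (3 of 3). ANLN, the anillin of the contractile ring, had ratios of 1.72, 1.69, 1.75 and 1.76, an SD of 0.03 (n = 4) that is the smallest among the members. Its mean of 1.73 was 3.31-fold (limma adjusted p = 0.00201). In EV7, EV12, EV9 and EV18 it had ratios of -0.20, 0.02, -0.08 and 0.68. RACGAP1, of the centralspindlin complex, had ratios of 1.13, 1.16, 1.06 and 1.26. ECT2, the exchange factor that activates RhoA at the division plane, had ratios of 0.77, 1.21, 1.08 and 1.41 (mean 1.12, limma adjusted p = 0.00822). A second ECT2 probe was called with a mean of 1.34, and A_24_P366033 had a mean of 0.09.

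The condensin subunits and TOP2A compact and untangle the chromosomes. All 3 were called higher in MUC4-KD. NCAPG had ratios of 1.33, 1.24, 1.15 and 1.44, and NCAPH of 0.94, 1.69, 1.03 and 0.56. TOP2A, the topoisomerase that unlinks sister chromatids, had ratios of 0.78, 0.53, 1.49 and 2.54, an SD of 0.90 (n = 4), with a limma adjusted p of 0.0406. Its mean was 0.66 with the labelled knockdown in Cy3 and 2.01 with it in Cy5, and the part of the dye was not tested. The order of arrays for TOP2A was not that for NCAPH.

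FOXM1, a transcription factor of G2/M genes, and MKI67, the Ki-67 antigen of cycling cells, were not alike. In MUC4-KD, MKI67 had ratios of 0.97, 0.95, 1.14 and 0.55 (mean 0.90, limma adjusted p = 0.0127). FOXM1 had ratios of 0.02, 0.37, -0.16 and 0.28 and was not called. In ErbB2-KD, FOXM1 had ratios of -1.69, -0.03, -0.73 and -0.44, the only member below 0 on 4 of 4 arrays. Its mean of -0.72 had a limma adjusted p of 0.238.

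**Figure D3:**
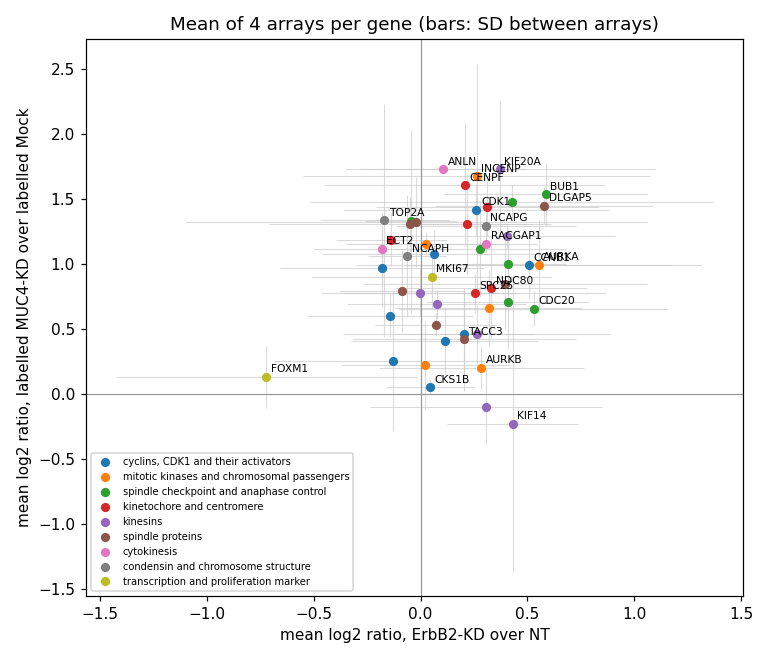
Mean log2 ratio of each member in ErbB2-KD (x axis) and in MUC4-KD as labelled (y axis), coloured by role, with bars for the SD between arrays. On the y axis 48 of 50 members lie above 0, and on the x axis they reach from -0.72 (FOXM1) to 0.59 (BUB1).

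The difference between the experiments was tested over all 8 arrays. Of the 50 genes, 19 had a higher ratio in MUC4-KD than in ErbB2-KD (limma, adjusted p under 0.05) and 0 a lower one, where 7.03% of 23081 probes were called higher and 3.70% lower. The median difference was 0.84. ANLN differed by 1.62 (limma adjusted p = 0.0032) and CDK1 by 1.15 (limma adjusted p = 0.0352). CCNB1 and AURKA, with differences of 0.48 and 0.44, were not called. By role, 3 of 3 cytokinesis genes, 3 of 3 of condensin and TOP2A and 4 of 6 kinetochore genes were called, and 1 of 7 kinesins. Over the 50 members, the means of the experiments had r = 0.18. Each of the 3 slides held arrays of both experiments, and within a slide the median difference was 0.52, 0.90 and 0.70. The number of called genes was 8 without EV7, 9 without EV9 or EV18, 6 without MUC4-KD array 1 or 3 and 9 without array 2. It was 0 with median centring and 9 with no filter on dim probes. With the sign of the MUC4-KD ratios turned, 35 genes were called lower, 17 of them among the 19. The calls by role then were 3 of 3 for cytokinesis, 2 of 3 for condensin and TOP2A, 6 of 6 for the kinetochore and 4 of 7 for the kinesins. The share of all probes called with the sign turned is not given here, so these calls cannot be read against it.

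Other genes of the cycle were read beside the members in MUC4-KD. Of 52 further mitotic genes tested, 24 were called higher and 1 lower, with a median of 0.53. SPAG5 and CENPW had the highest means at 1.45 and 1.30, and MAD1L1, of the spindle checkpoint, was called lower at -0.68. Among other condensin and cohesin subunits 5 of 11 were called higher, with the condensin ATPase SMC4 at 1.71. Of the 14 tested genes of the anaphase promoting complex and its regulators, 2 were called higher, FBXO5 at 0.85 and CDC23 at 0.71, and ANAPC5 was called lower at -0.50. The counts of the anaphase promoting complex list, unlike those of the other 2 lists, are near the 12.0% and 8.48% of all tested probes called higher and lower.

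Of 13 G2/M transcription regulators, 2 were called higher (NFYB at 0.86 and RBL2 at 0.68) and 3 lower, among them LIN52 at -0.67 and E2F4 at -0.47, to be read against the same 12.0% and 8.48% of all probes. Of 8 inhibitors of mitotic entry, 0 were called higher by limma and 1 lower. That gene was CDKN1A, the inhibitor of cyclin-dependent kinases, with ratios of -1.21, -1.28, -1.15 and -1.23 (mean -1.22, limma adjusted p = 0.00348). Of 31 G1/S and replication genes, 6 were called higher and 4 lower, with a median of 0.16. These counts and those of the inhibitors are also to be read against the 12.0% and 8.48% of all probes. No trait of either list is read from them. RRM2, a subunit of ribonucleotide reductase, had a mean of 1.25, and the helicase subunits MCM3 and MCM2 had means of -0.94 and -0.71. In ErbB2-KD, limma called 0 genes in each of these lists.

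**Figure D4:**
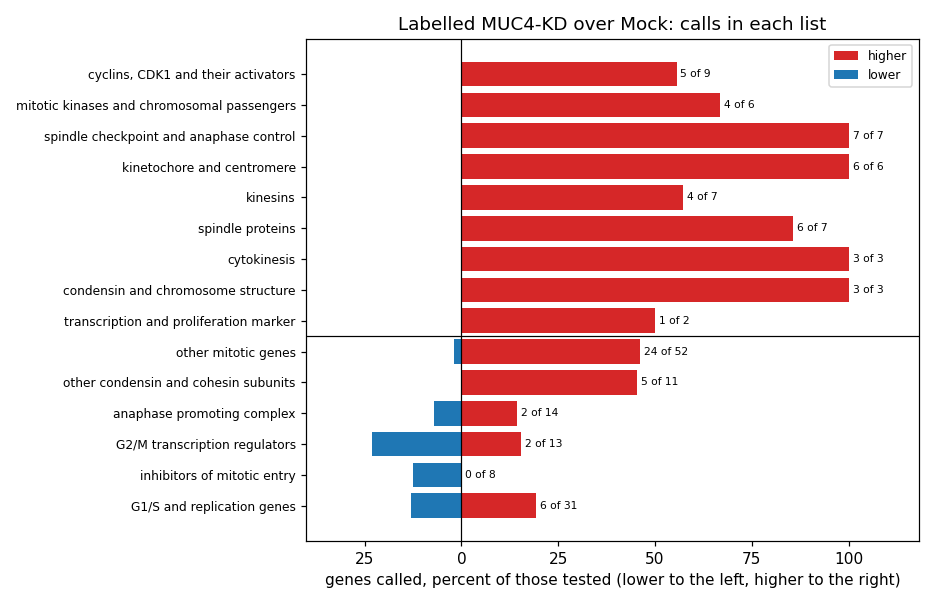
Percent of the tested genes of each list called higher (red, to the right) or lower (blue, to the left) in MUC4-KD over Mock as labelled, with the number called higher of those tested. The 9 role groups of members are above the line and the other lists below it, where 24 of 52 further mitotic genes and 6 of 31 G1/S genes were called higher. Of all tested probes, 12.0% were called higher and 8.48% lower.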

How the data were processed

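The authors hybridised labelled RNA to Agilent 2-colour arrays and deposited the Feature Extraction 10.5.1.1 output, with a median spot and background intensity per channel and a log10 ratio (Cy5 to Cy3). The deposited series table holds the same log10 ratio turned to labelled knockdown over control. The files hold no mean intensity, so the median was used. Here limma 3.58.1 (R 4.3.3) was used with normexp at an offset of 50 for the background. Arrays were normalized by loess with control spots at weight 0, outlier spots were then left out, and spots of a probe were averaged (41000 probes, 25398 named through RefSeq accessions). A probe entered the tests if either RNA of an experiment was well above background on each of its 4 arrays. Mean log2 ratios were tested against 0, or between experiments, with lmFit and eBayes and Benjamini-Hochberg adjustment. A gene is given by its brightest tested probe.

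The genes named with per-array values are CDK1, CCNB1, ECT2, FOXM1, MKI67 and, in each role group, those with the highest and lowest mean in MUC4-KD and the largest absolute mean in ErbB2-KD. From the other lists, up to 2 of the highest and 2 of the lowest are named. Further members are named with means to account for the list. The members and lists were chosen with earlier results of these data known. The weighting of outlier spots in loess was also tried another way after the first counts had been seen, and the first version was kept. In a channel, 56.7% to 74.2% of probes were well above background, and the number of arrays limits the precision. P-values measure the spread between arrays, in which clone, dye and slide are mixed. They do not measure the spread of the control pool, which the arrays of an experiment share. For MUC4-KD the labels do not show that each array held a different clone. Only the fits and the adjustment were tested on simulated log ratios, which held no shared pool, dye or slide effect. Alternatives were another normexp offset, the Feature Extraction log ratios, median centring, other filters, a dye term, the slide and the replicate number as blocks, other eBayes settings, an ordinary t-test, the mean over probes, averaged array pairs, a turned sign and leaving out each array.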

Additional observations from a re-analysis of the deposited data

Results flagged for a closer look

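In 7 of 99 sets of 4 arrays, 1 array lay far from the other 3, where chance gives about 1 in 20. On MUC4-KD array 4, CDC25B was at 1.06, MAD2L1 at 2.37 and TACC3 at 1.01, above the other arrays, and NEK2 at 1.03, below them. In EV7, BUB1 was at -0.12, KIF2C at -0.50 and TACC3 at -0.58, below the other clones.

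The log2 ratio of 19 members differed between the experiments (limma, adjusted p under 0.05, all 8 arrays), with MUC4-KD as labelled above ErbB2-KD in each case: CDK1 by 1.15, CCNA2 by 1.02, CKS2 by 1.15, NEK2 by 1.13, BUB1 by 0.95, MAD2L1 by 1.37, CENPA by 1.32, CENPE by 1.13, CENPF by 1.40, NUF2 by 1.08, KIF20A by 1.36, NUSAP1 by 0.88, HMMR by 1.35, ECT2 by 1.30, ANLN by 1.62, RACGAP1 by 0.85, NCAPG by 0.99, NCAPH by 1.12 and TOP2A by 1.50.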

How the results depend on the processing

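The 39 members called in MUC4-KD were 0 with median centring, 5 with an ordinary t-test after Benjamini-Hochberg adjustment, 23 at 2-fold with an unadjusted p under 0.01, and 5 to 42 with 1 array left out. Their median of 0.99 was 1.08 with the Feature Extraction log ratios, 1.17 with median centring and 0.93 to 1.02 with 1 array left out. In ErbB2-KD 0 members were called under every alternative run (0 to 0 with 1 array left out; by limma 5 had an unadjusted p under 0.05, and 0 to 20 with 1 array left out), and the median ran from 0.09 to 0.39 with 1 array left out. The 19 called for the difference were 0 with median centring, 9 with no filter on dim probes, 5 with an ordinary t-test and 6 to 23 with 1 array left out. The replicate block gave 7; the numbers do not pair the arrays, since same-numbered arrays had correlations of their deviations from -0.24 to -0.05. The causes were not tested. The share of all probes called is given for the main fits only, and the share at an unadjusted p is not given. With outlier spots at weight 0 in loess, chosen after seeing the data, 40 members were called in MUC4-KD, including the same 39, and 19 for the difference. A random slide block could not be estimated from 4 arrays on 3 slides. With the slide as a fixed block, added after seeing the data, 43 were called in MUC4-KD.

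With the MUC4-KD sign turned, 35 members were called lower for the difference, with no share of all probes beside that count. Among the members named with per-array values, the differences that turned in sign and were called as labelled or after turning were CDK1 -1.68, CCNB1 -1.50, AURKA -1.54, INCENP -1.94, BUB1 -2.12, CDC20 -1.18, CENPF -1.81, NDC80 -1.14, SPC25 -1.03, KIF20A -2.10, DLGAP5 -2.03, ECT2 -0.93, ANLN -1.83, RACGAP1 -1.46, NCAPG -1.60, NCAPH -0.995, TOP2A -1.17 and MKI67 -0.95. TOP2A was called as labelled and not after turning (limma adjusted p = 0.0672). Array number and signal over background limit all of these values.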
